A study of Mus musculus with 8 samples.

Results

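The genes described here are 10 secretory and epithelial estrogen targets of the mouse uterus: Lcn2, Ltf, Muc1, Muc4, Wfdc18, Scgb3a1, Padi1, Sprr2f, Aoc1 and Tmprss11a. They were taken by symbol from the 23238 symbols of the count files, and several were chosen by their measured rise with estradiol in these same libraries. Their estradiol responses are therefore given as a description, with no test. All 10 were among the 13347 genes tested, although 4 entered the test only through the estradiol libraries: Wfdc18, Scgb3a1 and Tmprss11a had no oil library with at least 10 reads and Aoc1 had 1.

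The libraries were made from stromal cells of the uterus of ovariectomized mice (strain C57BL/6-ICR), in 4 groups of 2 libraries. Control stroma carried the floxed Atg7 gene with the genotype Atg7f/f, and deleted stroma was labelled Atg7d/d, from mice in which an Amhr2-driven Cre removes Atg7, a gene required for autophagy, from the uterine mesenchyme. Mice of each genotype were injected with oil or with estradiol (E2). A group with Cre and an intact Atg7 gene was not analysed here, so Cre and the deletion cannot be told apart. The dose, the time after injection, the mice's age and the way the stroma was separated are not given in the labels. Whether the 2 libraries of a group stem from different animals is not stated, so a p-value here reflects the spread of libraries and that spread may be technical.

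Estradiol acts in the uterus through estrogen receptor alpha, a nuclear receptor that binds DNA directly or through partners such as AP-1, and both stroma and epithelium carry it. In ovariectomized mice it makes the luminal and glandular epithelium grow and secrete. Lactotransferrin is a long-used marker of that epithelial response, and lipocalin 2, mucins and small proline-rich proteins belong to the same secretory and barrier functions. In a bulk library, a lower count can reflect fewer cells of a type or less RNA per cell, and these cannot be told apart.

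The libraries held 5458390 to 6951080 counts each, and 15527 to 15963 symbols had a read. Atg7 had 3.47 and 5.67 CPM (counts scaled to a common library size) in control oil and 3.32 and 5.20 CPM in deleted oil. With E2 it had 2.79 and 3.53 CPM in control and 4.14 and 3.56 CPM in deleted stroma. These ranges overlapped between the genotypes in both treatments. The reads come from transcript 3′ ends, and the position of the floxed exon is not given in the sources used here, so Atg7 does not check the genotype labels. Markers of fibroblasts and stroma were present throughout, with 2743 to 4122 summed CPM over 15 genes in oil and 7218 to 9847 in E2. Markers of epithelium were present too: 24 genes, none of them at 0 in any library, summed to 5117 to 18866 CPM in oil and to 1713 to 3279 CPM in E2. The labelled stroma therefore held RNA of epithelial genes in all 8 libraries.

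Promoter sequences are shown for 5 of the 10 genes. These include the gene with the highest level after estradiol in control stroma (Sprr2f), the classic secretory target (Ltf) and genes that were close to 0 in oil. Tmprss11a, also close to 0 in oil, is not shown. The 5 hold all 4 genes with a single arm of the estrogen response element, so they do not represent the 10. The sequences run from 250 bases before the annotated start to 50 bases after it, on the sense strand, from RefSeq on the build GRCm38.p6. Capitals mark a match to GGTCA, a single arm of the estrogen response element (TGACC on the other strand), the AP-1 site TGANTCA or the TATA box TATAAA.
Sprr2f (chr3:92364937-92365236, plus strand): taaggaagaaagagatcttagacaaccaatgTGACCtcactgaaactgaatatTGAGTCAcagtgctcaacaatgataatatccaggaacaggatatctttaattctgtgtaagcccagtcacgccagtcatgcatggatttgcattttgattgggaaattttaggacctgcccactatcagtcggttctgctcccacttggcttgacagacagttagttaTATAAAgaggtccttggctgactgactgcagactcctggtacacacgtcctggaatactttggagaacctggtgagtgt
Ltf (chr9:111019042-111019341, plus strand): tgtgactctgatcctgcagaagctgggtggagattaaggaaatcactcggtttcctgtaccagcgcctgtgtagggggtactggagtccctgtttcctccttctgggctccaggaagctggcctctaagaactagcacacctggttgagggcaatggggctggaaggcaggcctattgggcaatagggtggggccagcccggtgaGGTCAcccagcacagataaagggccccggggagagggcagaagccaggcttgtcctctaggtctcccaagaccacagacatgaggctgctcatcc
Scgb3a1 (chr11:49663345-49663644, plus strand): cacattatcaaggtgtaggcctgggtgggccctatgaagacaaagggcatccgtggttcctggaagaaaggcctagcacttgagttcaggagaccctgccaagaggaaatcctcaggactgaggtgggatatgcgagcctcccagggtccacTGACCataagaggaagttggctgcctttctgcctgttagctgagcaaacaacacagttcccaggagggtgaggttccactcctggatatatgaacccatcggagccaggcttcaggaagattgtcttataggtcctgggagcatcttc
Aoc1 (chr6:48895005-48895304, plus strand): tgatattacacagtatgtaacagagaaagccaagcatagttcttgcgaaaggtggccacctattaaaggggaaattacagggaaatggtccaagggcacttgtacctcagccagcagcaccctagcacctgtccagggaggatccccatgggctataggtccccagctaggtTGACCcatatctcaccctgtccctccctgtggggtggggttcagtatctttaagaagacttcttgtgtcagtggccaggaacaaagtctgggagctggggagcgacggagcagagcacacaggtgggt
Wfdc18 (chr11:83708754-83709053, plus strand): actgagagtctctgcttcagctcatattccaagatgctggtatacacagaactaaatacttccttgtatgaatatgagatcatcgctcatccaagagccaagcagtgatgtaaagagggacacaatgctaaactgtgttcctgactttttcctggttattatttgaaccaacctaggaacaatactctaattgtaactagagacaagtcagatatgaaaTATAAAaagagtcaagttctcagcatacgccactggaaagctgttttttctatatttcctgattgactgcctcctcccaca

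Of the 10 genes, all matched a RefSeq promoter window, and Aoc1 matched 2 windows. The full estrogen response element GGTCANNNTGACC occurred in 0 of the 11 windows, and in 0.0700% of all 32851 windows of the same length. The single arm GGTCA, searched on both strands, occurred in 4 of the 10 genes: at position -219 from the start in Sprr2f, -78 in Aoc1, -45 in Ltf and -98 in Scgb3a1. It occurred in 40.5% of all windows. The AP-1 site occurred at position -197 in Sprr2f and -131 in the other Aoc1 window, beside 7.81% of all windows. TATAAA occurred in Sprr2f, Wfdc18, Muc1 and Muc4, between positions -36 and -29, beside 13.6% of all windows. The Sp1 site GGGCGG, occurred in Lcn2 and Muc1, beside 35.7% of all windows. These matches describe the letters in the windows and are not evidence of binding.

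The secreted defence and iron-binding proteins were low in oil and high in estradiol. Lcn2, which encodes lipocalin 2, a secreted protein that binds bacterial iron-carrying siderophores, lies on chromosome 2 (32384633 to 32388252, minus strand, mm10). It had 8.83 and 4.6 CPM in control oil and 183 and 251 CPM in control E2. In deleted stroma it had 3.48 and 2.52 CPM in oil and 152 and 153 CPM in E2. No oil library overlapped an E2 library: the lowest E2 library exceeded the highest oil library 20.7-fold in control and 43.6-fold in deleted stroma. The fitted log2 fold change was 5.0 ± 0.32 (SE, n = 2 libraries per group) in control and 5.66 ± 0.35 in deleted stroma.

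Ltf, which encodes lactotransferrin, an iron-binding antimicrobial protein, lies on chromosome 9 (111019271 to 111042767, plus strand). It had 20.7 and 3.36 CPM in control oil, 99.6 and 188 CPM in control E2, 11.2 and 7.88 CPM in deleted oil and 61.2 and 97.5 CPM in deleted E2. The groups did not overlap within either genotype, and the 2 control oil libraries differed 6.14-fold from each other. The log2 fold change with estradiol was 3.56 ± 0.66 in control and 3.05 ± 0.66 in deleted stroma, and without 1 library at a time the control value ranged from 2.76 to 5.43.

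Wfdc18, which encodes a small secreted protein of the whey acidic protein family, lies on chromosome 11 (83709015 to 83711348, plus strand). It had 1 and 0 reads in control oil and 156 and 244 reads (21.8 and 37.5 CPM) in control E2. Deleted stroma had 1 and 0 reads in oil and 342 in each E2 library (61.5 and 55.3 CPM). Wfdc18 was thus nearly without reads in oil and had its highest levels in the deleted E2 libraries. Its ratio of scaled reads was 351 in control stroma, with a 95% exact (Clopper-Pearson) interval of 62.6 to 13893, and 738 in deleted stroma, with an interval of 132 to 29208. Such intervals cover counting error only.

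Scgb3a1, which encodes a secretoglobin, a small protein secreted by airway and other epithelia, lies on chromosome 11 (49663610 to 49665118, plus strand). It had 1.26 and 0.177 CPM in control oil, 27.8 and 25.7 CPM in control E2, 0.316 and 0.315 CPM in deleted oil and 25.4 and 15.7 CPM in deleted E2. All 4 E2 libraries stood above all 4 oil libraries. Its fitted log2 fold change was 5.13 ± 0.53 in control and 5.93 ± 0.60 in deleted stroma, on 9 and 4 oil reads in all.

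The membrane mucins had the smallest differences. Muc1, which encodes a transmembrane mucin that coats the apical surface of the uterine epithelium, lies on chromosome 3 (89229057 to 89233381, plus strand). It had 34.4 and 13.8 CPM in control oil and 37.9 and 81.9 CPM in control E2, so that the nearest libraries differed only 1.10-fold. In deleted stroma it had 34.5 and 20.8 CPM in oil and 29.9 and 67.6 CPM in E2, and these groups overlapped. The log2 fold change was 1.31 ± 0.54 in control and 0.82 ± 0.54 in deleted stroma. Muc4, which encodes another membrane mucin, lies on chromosome 16 (32735886 to 32782391, plus strand). Its control libraries had 5.68 and 3.19 CPM in oil and 14.4 and 29.2 CPM in E2, which did not overlap. Its deleted libraries had 4.27 and 1.42 CPM in oil and 3.78 and 15.5 CPM in E2, which did. Muc4 had a log2 fold change of 2.28 ± 0.69 in control and 1.77 ± 0.73 in deleted stroma.

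**Figure D1:**
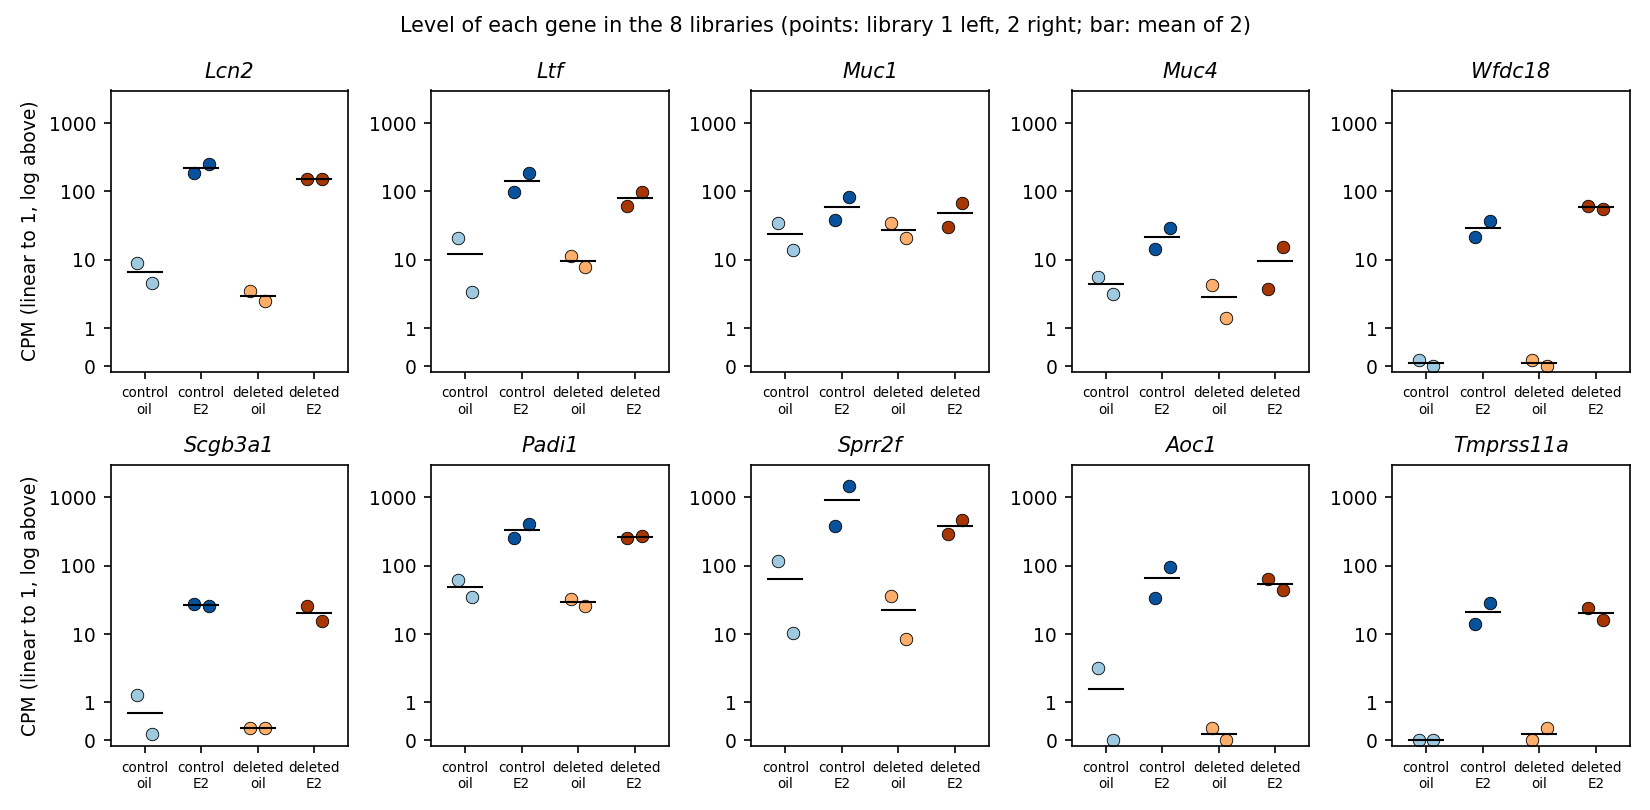
CPM of the 10 genes in the 8 libraries, on an axis that is linear up to 1 and logarithmic above; points are libraries, with library 1 at the left, and bars are means of 2. Lcn2 lies at 2.52 to 8.83 CPM in oil and at 152 to 251 CPM in estradiol, while Muc1 overlaps between oil and estradiol in deleted stroma.

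Among the enzymes and barrier proteins, Sprr2f had the highest CPM after estradiol in control stroma and the widest spread between libraries of that group (3.79-fold). With reads from transcript 3′ ends, a count does not grow with transcript length. Sprr2f encodes a small proline-rich protein, a family known from the cross-linked envelope of squamous cells and induced by estrogen in the uterine epithelium. It lies on chromosome 3 (92365187 to 92366442, plus strand). It had 116 and 10.4 CPM in control oil, 386 and 1462 CPM in control E2, 36.2 and 8.51 CPM in deleted oil and 291 and 461 CPM in deleted E2. The treatments did not overlap in either genotype, but libraries of 1 group differed up to 11.1-fold. The log2 fold change was 3.86 ± 1.07 in control and 4.07 ± 1.10 in deleted stroma, and without 1 library at a time the control value ranged from 2.61 to 6.48. Sprr2f has close paralogs, but none of the 50-base stretches in the last 300 bases of its transcript stands in a transcript of another gene in GENCODE M21.

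Padi1 encodes a peptidylarginine deiminase, an enzyme that converts arginine in proteins to citrulline, and lies on chromosome 4 (140812983 to 140845778, minus strand). It had 62.8 and 34.9 CPM in control oil, 253 and 407 CPM in control E2, 32.7 and 26.0 CPM in deleted oil and 257 and 271 CPM in deleted E2. Its treatments did not overlap, and the 2 libraries of each deleted group lay close together. Padi1 had a log2 fold change of 2.75 ± 0.32 in control and 3.17 ± 0.33 in deleted stroma.

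Aoc1, on chromosome 6 (48872896 to 48909188, plus strand), encodes diamine oxidase, a secreted enzyme that degrades histamine and putrescine. It had 20 and 0 reads (3.16 and 0 CPM) in control oil and 33.8 and 97.1 CPM in control E2. In deleted stroma it had 2 and 0 reads in oil and 63.5 and 44.3 CPM in E2. Aoc1 was present in oil mainly in 1 control library. Its log2 fold change in control stroma was 5.30 ± 0.86, and without 1 library at a time it ranged from 4.32 to 11.7. In deleted stroma the ratio of scaled reads of Aoc1 was 338, with a 95% exact interval of 93.3 to 2801. Tmprss11a, on chromosome 5 (86410410 to 86468990, minus strand), encodes a membrane serine protease of the airway trypsin-like group. It had 0 reads in both control oil libraries and 99 and 184 reads (13.8 and 28.3 CPM) in control E2. In deleted stroma it had 0 and 2 reads in oil and 24.3 and 16.2 CPM in E2. Against a floor of 3 reads over the group, it was at least 82.7-fold higher in control E2, and its ratio in deleted stroma was 127 (95% exact interval 34.7 to 1054).

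By edgeR's quasi-likelihood fit, 9 of the 10 genes passed an adjusted p of 0.05 upward in control stroma, where 15.8% of all tested genes did, and 8 of 10 passed in deleted stroma, where 13.1% did. Muc1 in both genotypes and Muc4 in deleted stroma were the exceptions. Because this contrast chose the genes, nothing is read from these counts. The members' median log2 fold change was 4.43 in control and 4.86 in deleted stroma, beside 0.01 and 0.02 over all tested genes.

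**Figure D2:**
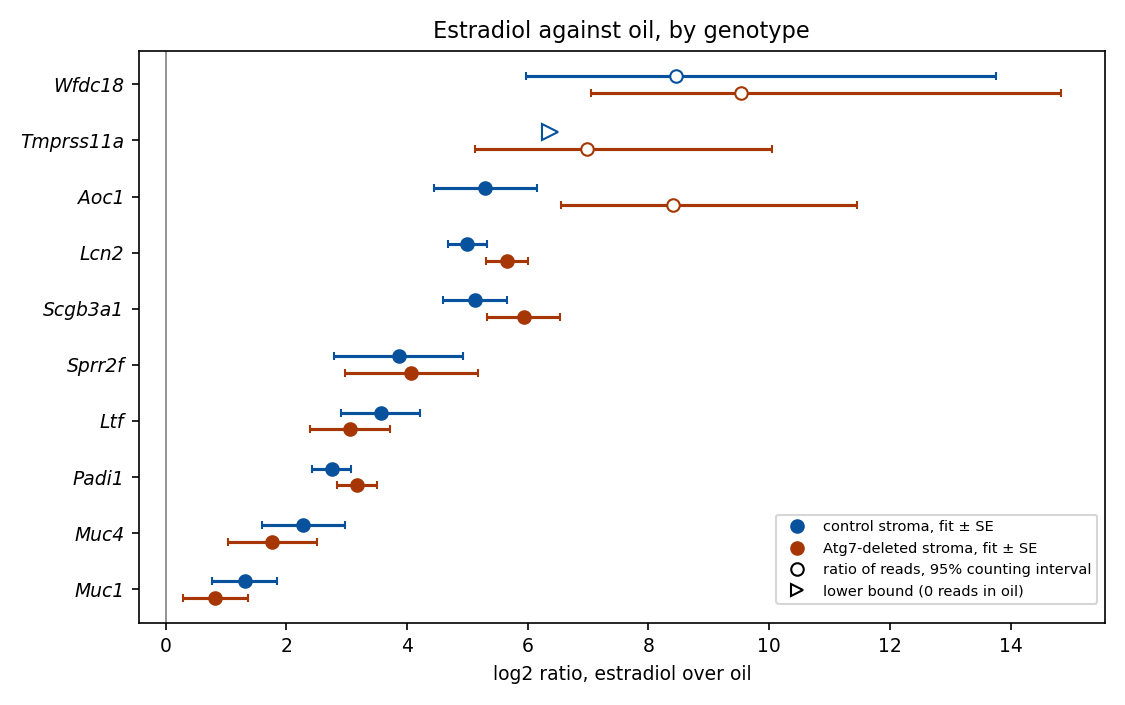
Log2 ratio of estradiol to oil for each gene, in control (blue) and Atg7-deleted (brown) stroma; filled points are fitted values ± SE, open points are ratios of reads with 95% counting intervals and the triangle is a lower bound. Muc1 lies lowest, at 1.31 and 0.82, Wfdc18 has ratios of 351-fold and 738-fold, and Tmprss11a in control stroma has a lower bound of 82.7-fold.

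Within a group, the members' libraries were often unequal. In control oil, 9 of the 10 were higher in library 1 and Tmprss11a was at 0 in both. In control E2, 9 of 10 were higher in library 2, with Scgb3a1 the exception. In deleted oil, 9 were higher in library 1 and 1 in library 2, whereas in deleted E2 the members were divided, with 4 higher in library 1 and 6 in library 2. The 10 genes together summed to 253 and 70.5 CPM in control oil and 1071 and 2608 CPM in control E2. In deleted stroma they summed to 123 and 67.7 CPM in oil and 969 and 1197 CPM in E2. Sprr2f made up 12.6% to 56.1% of that sum. Without it the sums were 137 and 60.0 CPM in control oil and 685 and 1146 CPM in control E2, beside 86.9 and 59.2 CPM in oil and 678 and 736 CPM in E2 for deleted stroma.

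The summed epithelium markers differed between the same libraries in the same direction as the members' sum. Their level was 18866 and 6526 CPM in control oil and 1721 and 3279 CPM in control E2, so the library with the higher marker sum also had the higher sum of the members. It was 11797 and 5117 CPM in deleted oil and 1713 and 2216 CPM in deleted E2. Between treatments the markers went the other way from the members. By edgeR, 1871 of the 13347 tested genes fell with estradiol in control stroma and 1496 in deleted stroma. Among the 24 epithelium markers, 11 fell in control stroma and 0 rose, with a median of -0.87. In deleted stroma 6 of them fell and 0 rose, with a median of -0.94. At an unadjusted p under 0.05, 1 rose in control and 2 in deleted stroma, and by DESeq2 0 rose in either. Among them, Cldn4, a tight junction claudin, fell from 6414 and 2324 CPM to 305 and 749 CPM in control stroma. Krt18, a keratin of simple epithelia, fell from 3248 and 1013 CPM to 133 and 264 CPM. The count of fallen markers in control stroma was 2 without control E2 library 1, 5 without control E2 library 2, 6 without control oil library 1, 15 without control oil library 2 and 7 with only the control groups in the fit. In deleted stroma it was 1 without E2 library 1, 2 without E2 library 2, 1 without oil library 1, 10 with only the deleted groups in the fit and 11 with no filter on low counts. The part of epithelial RNA in the members' spread within groups was not tested.

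**Figure D3:**
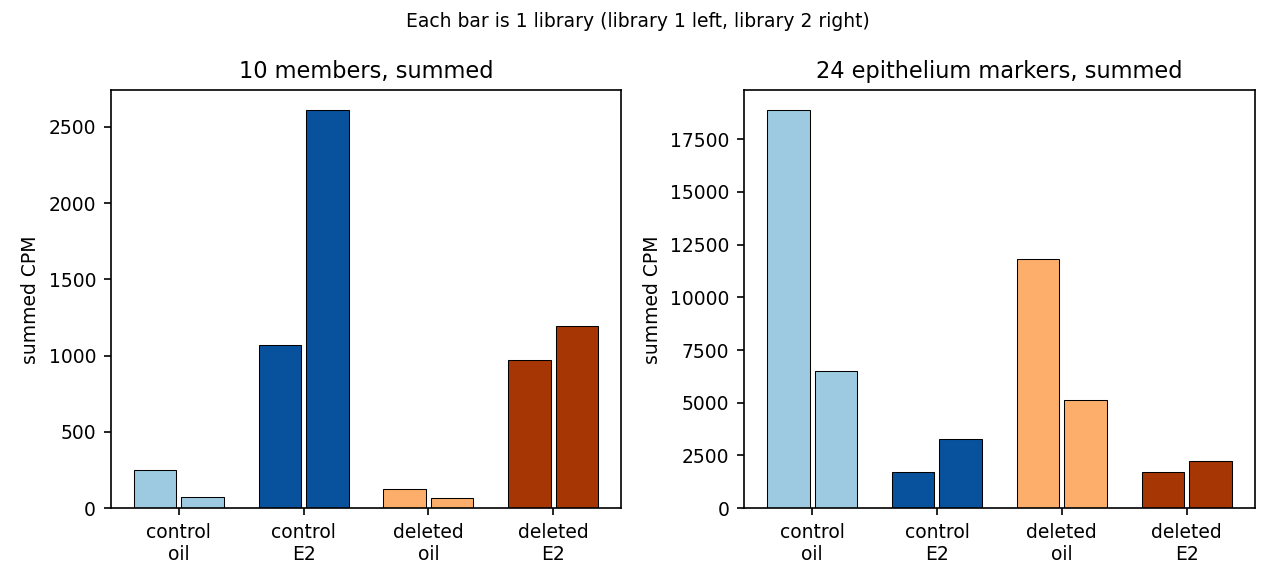
Summed CPM of the 10 genes (left) and of 24 epithelium markers (right), 1 bar per library, with axes from 0. The genes sum to 67.7 to 253 CPM in oil and 969 to 2608 in estradiol, and the markers sum to 5117 to 18866 CPM in oil and 1713 to 3279 in estradiol.

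Set against the epithelium markers, each member was higher in every E2 library than in every oil library of its genotype. On that scale 85.9% of all tested genes were so in control stroma and 89.2% in deleted stroma, so nothing about the members is read from this count. Per 1000 CPM of summed markers, the 10 genes together stood at 13.4 and 10.8 CPM in control oil and 623 and 795 in control E2. In deleted stroma they stood at 10.4 and 13.2 in oil and at 566 and 540 in E2. The sum was thus close between the oil libraries on this scale, but some single members were not. Sprr2f stood at 6.16 and 1.60 in control oil and at 3.07 and 1.66 in deleted oil. Padi1 stood at 3.33 and 5.34 in control oil and at 2.77 and 5.08 in deleted oil, higher in library 2. Muc1, which overlapped in deleted stroma as CPM, stood at 2.92 and 4.06 per 1000 CPM of markers with oil there and at 17.4 and 30.5 with E2. Lower markers in estradiol by themselves raise such a ratio. With the median of the markers in place of their sum, all 10 still did not overlap in both genotypes, and the log2 difference of Muc1 was 2.43 in place of 3.58 in control stroma.

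Lcn2 and Ltf are also stored in the granules of neutrophils, so granulocyte markers were measured. Over 20 granulocyte genes other than these 2, the summed level was 23.5 to 46.2 CPM in oil and 22.4 to 64.2 CPM in E2, and 6 to 9 of the genes were at 0 in a library. Of the 8 tested, edgeR called 0 higher with estradiol in either genotype. At an unadjusted p under 0.05, 0 were higher in control and 2 in deleted stroma, and DESeq2 called 0 and 2 higher. Others went the other way. By edgeR 0 were lower in control and 1 in deleted stroma. At an unadjusted p under 0.05, 1 and 2 were lower, and DESeq2 called 0 and 2 lower. Granulocyte RNA in Lcn2 and Ltf was not tested beyond these values. Markers of squamous epithelium, which in the body expresses many small proline-rich proteins, summed to 147 to 531 CPM in oil and 67.8 to 124 CPM in E2 over 20 genes, with 3 to 9 at 0. Macrophage markers summed to 163 to 239 CPM in oil and 212 to 370 CPM in E2, and smooth muscle markers to 1643 to 4109 CPM and 6269 to 7207 CPM. The summed levels of uterine gland markers were 389 to 909 CPM in oil and 192 to 404 CPM in E2. Endothelium markers summed to 2188 to 2880 CPM in oil and 1730 to 2317 CPM in E2, and mesothelium markers to 192 to 230 CPM and 96.8 to 168 CPM.

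Relatives of the 10 genes are given by family. They are to be read beside the 15.8% of all tested genes that rose in control stroma and the 13.1% that rose in deleted stroma. Of the 13347 tested genes, 1871 fell in control stroma and 1496 in deleted stroma. Differences between families were not tested. Of the other small proline-rich genes, 5 of 7 rose in control stroma and 0 fell, with a median of 3.20. Sprr2b had 9.15 and 0.531 CPM in control oil and 37.0 and 62.2 CPM in control E2 (3.32 ± 0.77), and Sprr2a2 had 6.78 and 1.06 CPM and then 22.2 and 51.6 CPM (3.20 ± 0.75). Sprr2g, at 11.5 and 13.8 CPM in oil and 6.29 and 21.5 CPM in E2, did not pass the test. Sprr1a had the highest level of the family, 1124 and 432 CPM in control oil and 172 and 455 CPM in control E2, and went the other way without passing in control stroma (-1.31 ± 0.52). In deleted stroma 5 rose, and Sprr1a fell (-1.77 ± 0.53). The 5 calls in control stroma became 0, with 1 gene fallen, without control E2 library 2, and 3 with only the control groups in the fit. The 5 calls in deleted stroma became 2 or 0 without E2 library 1 or 2, and 1 without either oil library. Sprr2b did not pass in control stroma by DESeq2 (adjusted p = 0.0526), where Sprr1a did (adjusted p = 0.0163), and the fall of Sprr1a in deleted stroma was lost without any 1 deleted library and with the replicate block (adjusted p = 0.0516 by edgeR). The last 300 bases of their GENCODE M21 transcripts were compared with other genes in 50-base stretches. Of these stretches, 100% for Sprr2a2, 71.1% for Sprr2a3 (4.39 ± 0.88 in control stroma) and 19.1% for Sprr2b also stand in a transcript of another gene. The genes they share with include other Sprr2 genes. The counts of these genes are therefore uncertain, and the calls in this family may not be separate. Sprr2g and Sprr1a share 0.

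Both other tested peptidylarginine deiminases rose in each genotype. Padi2 went from 36.9 and 12.6 CPM in control oil to 116 and 149 CPM in control E2, a log2 fold change of 2.41 ± 0.45. Padi4, named after its values were seen, rose from 7 and 0 reads in control oil to 52 and 58 in control E2. Without deleted E2 library 1, only 1 of the 2 rose in deleted stroma. The other tested secretoglobin, Scgb1c1, had 1 and 0 reads in control oil and 14.7 and 10.3 CPM in control E2, and passed upward in both genotypes.

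Of 8 other genes of the whey acidic protein family, 0 rose and 3 fell in each genotype by edgeR; at an unadjusted p under 0.05, 1 rose in control and 0 in deleted stroma, as by DESeq2. Without E2 library 1 of a genotype, only 1 fell in it. Wfdc2 fell from 349 and 185 CPM to 57.8 and 85.1 CPM in control stroma (-1.90 ± 0.45), Wfdc15b fell from 38.7 and 23.4 CPM to 6.70 and 5.84 CPM (-2.30 ± 0.33), and Wfikkn2 was the third. Slpi, the secretory leukocyte protease inhibitor, did not pass (0.81 ± 0.59). Of the other 2 tested mucins, 0 passed in control stroma by edgeR or DESeq2 (1 at an unadjusted p under 0.05), and Muc20, at 0.316 to 4.46 CPM over the libraries, rose in deleted stroma; it was chosen after its values were seen. Of 6 other amine oxidases, Paox, which oxidises acetylated polyamines, rose in control stroma (2.31 ± 0.34), and was also chosen after its values were seen. Smox, spermine oxidase, fell from 125 and 99.0 CPM to 57.4 and 72.7 CPM (-0.79 ± 0.20). In deleted stroma Aoc3 rose and Smox fell. Neither Smox call held without E2 library 1 or oil library 1 of that genotype. In deleted stroma the calls of Muc20, Aoc3 and Smox were lost without any 1 deleted library, and that of Aoc3 also without either control E2 library or with library totals.

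Of 9 other epithelial membrane serine proteases, 2 rose in each genotype by edgeR, Tmprss4 and Tmprss11g, and 0 fell. By DESeq2 4 fell in control and 2 in deleted stroma, and at an unadjusted p under 0.05 5 and 3 did. Without control oil library 2, 5 fell in control stroma, and without either control E2 library only 1 rose. Tmprss11g had 0 reads in both control oil libraries and 6.01 and 10.9 CPM in control E2, a pattern shared with Tmprss11a; these 2 were named after their values were seen. The protease with the highest level, Tmprss2, had 414 and 68.0 CPM in control oil and 47.1 and 79.8 CPM in control E2, and did not pass (-1.93 ± 0.71). Of 13 other genes of iron binding and uptake, 3 rose and 3 fell in control stroma, and 2 rose and 2 fell in deleted stroma; without 1 library at a time, 2 to 4 rose and 1 to 4 fell in control and 1 to 4 rose and 1 to 2 fell in deleted stroma. Hmox1, the heme oxygenase, fell from 205 and 244 CPM to 60.3 and 73.0 CPM in control stroma (-1.75 ± 0.23). The ferritin genes Fth1 and Ftl1 did not pass, with -0.01 ± 0.18 and -0.33 ± 0.24.

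**Figure D4:**
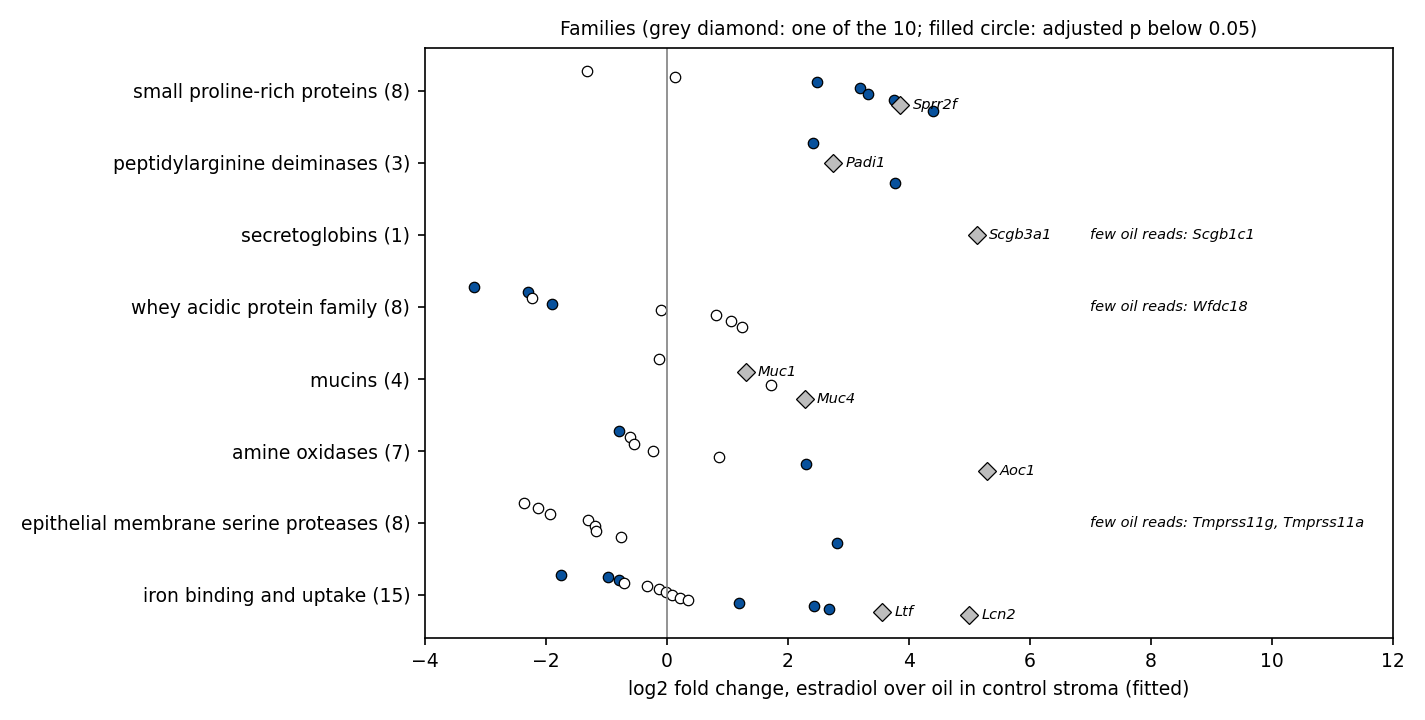
Fitted log2 fold change with estradiol in control stroma for the tested genes of 8 families (number plotted in parentheses); grey diamonds are 8 of the 10 genes, filled circles are relatives with an adjusted p below 0.05, and genes with 3 or fewer oil reads are named at the right without a value. Small proline-rich genes lie between -1.31 and 4.39.

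Among 39 other tested genes of a list of epithelial estrogen targets, 16 rose and 7 fell in control stroma, with a median of 0.47, and 14 rose and 8 fell in deleted stroma, with a median of 0.61. C3, complement component 3, a classic estrogen-induced gene of the uterine epithelium, rose from 55.1 and 26.2 CPM to 260 and 265 CPM in control stroma (2.69 ± 0.32). Ramp3, a receptor activity-modifying protein, rose from 311 and 264 CPM to 945 and 684 CPM (1.5 ± 0.22). Aqp5, a water channel of glands, fell from 530 and 135 CPM to 24.3 and 30.7 CPM (-3.59 ± 0.56), and Fgl2 and Cdkn1a fell by 1.15 and 1.22 on the log2 scale. The call of Fgl2 was lost without control E2 library 1 (adjusted p = 0.0556 by edgeR). Clu, Plet1, Prom1 and Pigr did not pass. The control median was 1.68 without control oil library 1 and 0.91 without control E2 library 1; 9 genes rose without control E2 library 2, and 11 fell without control oil library 2. In deleted stroma, between 7 and 9 genes rose without any 1 deleted library, and without E2 library 1, E2 library 2 or oil library 1 only 4 fell. The deleted median was 1.11 without deleted oil library 1.

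In the list of estrogen receptors and their co-factors, 2 of 14 genes rose and 2 fell in control stroma, and 2 rose and 1 fell in deleted stroma; without 1 library at a time 0 to 1 rose in control and 0 to 2 in deleted stroma, and 0 to 2 fell in each. Esr1, which encodes estrogen receptor alpha, had 242 and 278 CPM in control oil and 326 and 285 CPM in control E2, and did not pass (0.23 ± 0.17). Pgr, the progesterone receptor, a target of estrogen in stroma, rose from 194 and 200 CPM to 383 and 338 CPM (0.87 ± 0.19), a call that was lost without control E2 library 1 (adjusted p = 0.0702 by edgeR). Both were named for their role in estrogen action, outside the rule for naming genes.

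No difference between deleted and control stroma passed for any of the 10 genes. By edgeR's quasi-likelihood test, 0 of the 10 genes passed in oil, 0 after estradiol, and 0 in the interaction, which asks whether the estradiol response differed between genotypes. Over all 13347 genes 0% passed in each of these 3 comparisons, and DESeq2 also called 0. At an unadjusted p under 0.05 there were 339 genes in oil, 403 after estradiol and 210 in the interaction by edgeR, and 212, 277 and 138 by DESeq2. These comparisons share their libraries with the estradiol contrasts that chose the genes, and the interaction contains those contrasts.

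In oil, 7 of the 10 genes had more than 3 reads in both genotypes, and 6 of those 7 were fitted lower in deleted stroma, with a median log2 fold change of -0.74. Over all genes 51.4% were fitted lower, with a median of -0.01. Lcn2 (-1.17 ± 0.36, unadjusted p = 0.0105 by edgeR) and Padi1 (-0.74 ± 0.32, unadjusted p = 0.0446 by edgeR) did not overlap between the genotypes, 2 of the 10 genes, beside 11.6% of all tested genes that were lower in this way. Neither passed after adjustment over all genes (adjusted p = 1 for both), and Sprr2f was fitted at -1.51 ± 1.02 with overlapping libraries. The summed epithelium markers were unequal between libraries here, 18866 and 6526 CPM in control oil and 11797 and 5117 in deleted oil. These ranges overlapped between the genotypes, and 0 of the 24 markers passed by edgeR. Per 1000 CPM of markers, Lcn2 stood at 0.468 and 0.705 in control oil and 0.295 and 0.493 in deleted oil, which overlapped. With the median of the markers in place of their sum, Lcn2 (log2 difference -0.64 ± 0.019, SD) and Padi1 (-0.22 ± 0.094) were lower in both deleted libraries, as were 1.01% of all tested genes. Each SD rests on 2 libraries per group. With the sum, Padi1 overlapped (-0.17 ± 0.55). Muc1 was the 1 member higher in both deleted libraries, by 0.81 ± 0.26 with the sum and 0.76 ± 0.21 with the median. The share of all tested genes higher in this way was not computed, so nothing is read from these counts. Aoc1 had 2 reads in deleted and 20 in control oil, all 20 in 1 library, a ratio of scaled reads 10.6-fold lower (95% exact interval 2.57 to 93.3). That interval covers counting error only and leaves out the spread between libraries. By edgeR's fit over the libraries the unadjusted p of Aoc1 was 0.0974. Without control oil library 1, 3 of the 7 genes were fitted lower and the median was 0.80; without control oil library 2 all 7 were, with a median of -1.14, and without deleted oil library 1 all 7 were, with a median of -1.19.

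After estradiol, 9 of the 10 genes were fitted lower in deleted stroma, with a median of -0.35, beside 52.1% of all genes and a median of -0.01. Lcn2, at 183 and 251 CPM in control and 152 and 153 CPM in deleted stroma, did not overlap (-0.51 ± 0.26). Ltf (-0.86 ± 0.58) and Scgb3a1 (-0.38 ± 0.37) did not overlap either, and Muc4 (-1.16 ± 0.64) and Sprr2f (-1.30 ± 0.96) did. Of the 10 genes 3 were thus lower without overlap, beside 18.2% of all tested genes. Without control E2 library 2, which had the highest sum of the members, 5 of 10 were fitted lower and the median was 0.01. Without control E2 library 1, 9 were and the median was -0.74.

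Wfdc18 was the exception. It had 21.8 and 37.5 CPM in control E2 and 61.5 and 55.3 CPM in deleted E2, and the groups did not overlap; it was the 1 member higher in this way, beside 16% of all tested genes. The log2 fold change was 0.98 ± 0.31, with an unadjusted p of 0.0118 and an adjusted p of 1 by edgeR, and it stayed between 0.64 and 1.42 without any 1 library. Per 1000 CPM of epithelium markers Wfdc18 also did not overlap, at 12.7 and 11.4 in control E2 and 35.9 and 25.0 in deleted E2. On that scale it was the 1 member higher in deleted stroma without overlap, and 3 were lower (Ltf, Muc4 and Sprr2f). With the median of the markers, 2 were higher (Wfdc18 and Padi1) and 0 lower. The share of all tested genes on these scales was not computed, so nothing is read from these counts.

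**Figure D5:**
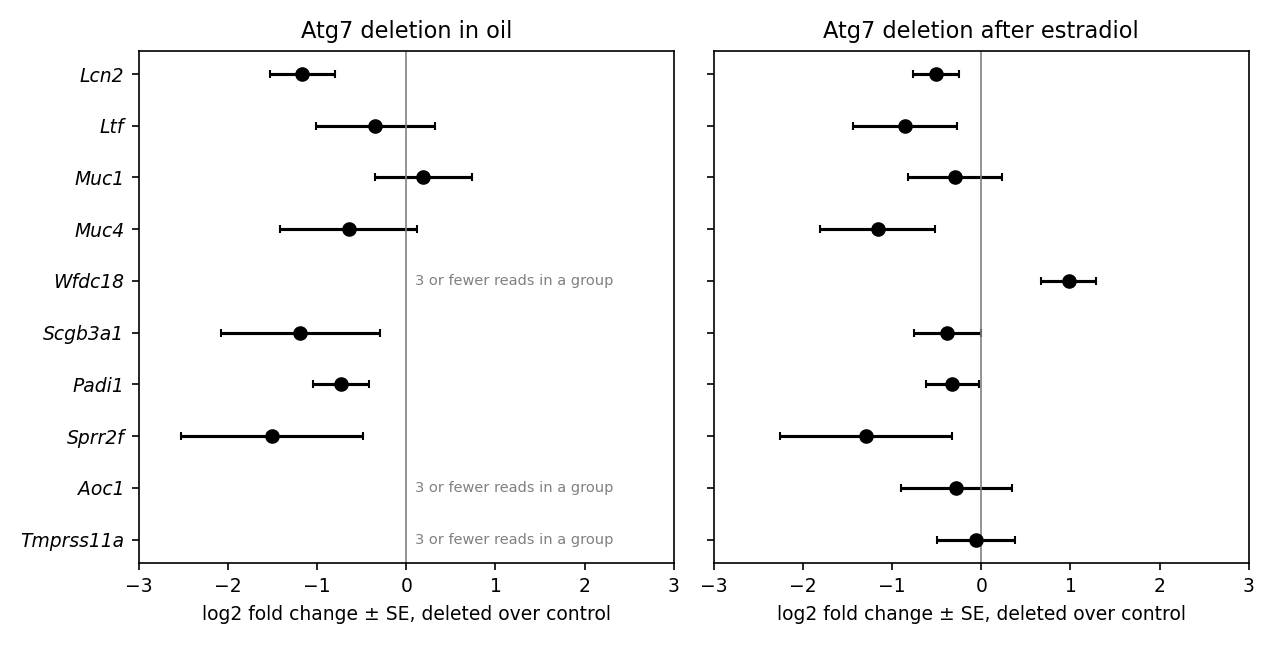
Log2 fold change ± SE of deleted over control stroma for each gene, in oil (left) and after estradiol (right), from the fit over 4 groups of 2 libraries. After estradiol 9 of the 10 genes lie below 0 and Wfdc18 lies at 0.98, and no gene passed the adjusted threshold in either panel.

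The fitted difference between the 2 estradiol responses was 0.66 ± 0.45 for Lcn2, -0.51 ± 0.88 for Ltf, -0.48 ± 0.76 for Muc1 and -0.51 ± 1.01 for Muc4. It was 0.80 ± 0.95 for Scgb3a1, 0.41 ± 0.43 for Padi1 and 0.21 ± 1.38 for Sprr2f. With a 95% interval of -2.90 to 3.32 on the log2 scale, Sprr2f could differ between genotypes by more than its own fitted interaction in either direction, and the interval of Padi1 was -0.57 to 1.39. No interaction is given for Wfdc18, Aoc1 and Tmprss11a, which had 3 or fewer reads in an oil group.

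Genes with the most similar pattern were found by the root mean square difference of log2(CPM + 1), centred on each gene's mean, over the 8 libraries and 10346 candidate genes. Aoc1 and Lcn2 were among each other's nearest genes (0.45). Fabp5, a fatty acid-binding protein, was nearest to Lcn2 (0.45), and was among the 3 nearest to Scgb3a1 (0.32) and Tmprss11a (0.45). Sprr2a2 was nearest to Sprr2f (0.76), the largest distance among the 10 nearest neighbours. Birc5 was nearest to Ltf (0.38), Ccnb1 to Muc4 (0.46), and Sftpd, which encodes the lung and uterine collectin surfactant protein D, to Padi1 (0.20). Cbr2 was nearest to Muc1 (0.20), Unc5cl to Scgb3a1 (0.29) and Car12, a carbonic anhydrase, to Tmprss11a (0.32). The nearest to Wfdc18 were Crabp1 (0.47) and the collagen gene Col1a1 (0.48), a fibroblast marker that went from 39.6 and 48.7 CPM in control oil to 1888 and 1196 CPM in control E2.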

How the data were processed

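RNA was measured in 8 libraries, 2 in each of 4 groups, made per the labels' protocols from 500 ng of total RNA with a QuantSeq kit. The authors deposited raw read counts per gene symbol, 1 file per library, with no normalization; tools named in the submitters' processing notes are Bowtie2 and edgeR, on the build mm10, and the read counter is not given in the sources used here. For 35 symbols on several lines (no members) only the line of highest total was used, and the lines left out held 0.0973% of counts. Genes were kept with filterByExpr (minimum count 10, minimum total 15), scaled by TMM (factors 0.918 to 1.03) and tested in 1 quasi-likelihood model with 4 group means in edgeR 4.0.16 (R 4.3.3), with Benjamini-Hochberg adjustment over 13347 genes at 0.05. The biological coefficient of variation was 21.8%. The script was tested on simulated data. CPM are counts scaled to the TMM library sizes, and standard errors come from the fold change and its test statistic, with intervals from the t distribution at 9.08 degrees of freedom.

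The 10 members, the gene lists and the tests were chosen with earlier results of these data known. Beyond the members, a rule listed, of each family, up to 5 genes with the highest mean CPM (at least 5) and 10 other epithelial estrogen targets. It also listed up to 4 genes of each marker list and the 3 genes nearest each member. The text names only some of the listed genes, with no stated rule for which, and some genes outside the list. Alternatives were library totals, DESeq2 1.42.0 and its size factors, other filters, a prior count of 2, summed lines, only the groups compared, a replicate block and leaving out each library.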

Additional observations from a re-analysis of the deposited data

How the results depend on the processing

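The number of genes past the threshold with estradiol in control stroma was 3978 and became 2305 with only the control groups in the fit; without 1 library at a time it ranged from 1505 to 4168. In deleted stroma it was 3242, with a range of 740 to 4345. The deletion comparisons and the interaction gave 0 under every alternative run. With only the groups compared no separate interaction could be fitted. Where 1 library of a group was left out, the lone library was assumed to vary like the other groups.

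Without 1 library at a time, the following log2 values changed sign. In oil, the deletion ranged from -1.14 to 1.54 for Ltf, -0.34 to 1.04 for Muc1, -1.96 to 0.80 for Scgb3a1 and -2.90 to 1.14 for Sprr2f. After estradiol it ranged from -1.0 to 0.36 for Muc1, -0.63 to 0.059 for Padi1, -0.85 to 0.67 for Aoc1 and -0.49 to 0.55 for Tmprss11a. The interaction ranged from -2.38 to 0.29 for Ltf, -1.32 to 0.17 for Muc1, -1.88 to 0.48 for Muc4, -1.18 to 1.59 for Scgb3a1, -0.10 to 0.81 for Padi1 and -2.42 to 1.60 for Sprr2f. With estradiol in control stroma, Fth1 ranged from -0.041 to 0.019, Ftl1 from -0.64 to 0.050, Plet1 from -0.086 to 1.05, Prom1 from -0.89 to 0.37 and Sprr2g from -1.0 to 0.77. With library totals Fth1 was at 0.050. The cause of these changes was not tested. No estradiol value of a member changed sign.

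Groups share only the replicate numbers 1 and 2, and the deviations of same-numbered libraries correlated from -0.263 to 0.552 between groups, so the numbers were not taken to pair libraries. The highest value, 0.552, was between control oil and deleted oil. In both of these groups library 1 had the higher sum of epithelium markers, 2.89-fold and 2.31-fold. What the oil libraries of one number share was not tested. With the replicate block, 9 and 8 members passed upward with estradiol in control and deleted stroma, Tmprss11a after estradiol was at 0.015 for the deletion, and Sprr2g was at -0.033. Over the alternatives that kept both libraries of each group compared, 8 to 10 members passed in control stroma and 8 to 9 in deleted stroma. Because the estradiol contrast chose the genes, nothing is read from these counts. For the deletion, the smallest adjusted p of a member in those alternatives, by edgeR, was 0.999 in oil and 0.502 after estradiol. A group's floor of 3 reads was 0.220 to 0.256 CPM, which limits what can be said of Wfdc18, Aoc1 and Tmprss11a in oil.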
